A study of Homo sapiens and Mus musculus with 55 samples.

Results

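The comparison set MDA-MB-436 cells labelled Tax-R (taxane-resistant) against parental MDA-MB-436 cells, over all genes with a mean normalized count of at least 10 across the 4 libraries. Of 36036 genes listed, 19085 met that rule, and 4 of the 55 libraries of the series entered, 2 per group. MDA-MB-436 is an established human triple-negative breast cancer cell line. Tax-R and parental cells carried no treatment at harvest per the labels. The taxane used, its dose and time, and whether the Tax-R cells descend from 1 clone are not stated in the sources used here. The same pair of groups in SUM159PT, another triple-negative line, served for comparison with 2 libraries each. Tax-R cells given a control siRNA and mock parental cells from a CRISPR experiment on STING, 2 libraries each, gave a second look at MDA-MB-436 levels.

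Taxanes bind to microtubules and stabilise them, which blocks the mitotic spindle and leads to cell death. Cells selected in taxanes are known to raise efflux pumps of the ABC family, above all ABCB1 (P-glycoprotein), which carries taxanes out of the cell. Altered tubulin isotypes, microtubule-associated proteins and regulators of apoptosis are the other classical routes. Clustered gene families such as the cancer-testis antigens and protocadherins are often silenced or activated as groups in cancer cells.

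Recovered depth was 11484066 and 11228594 reads in the Tax-R libraries, against 13191675 and 11661629 reads in the parental libraries. The Tax-R pair differed by slightly less than counting noise (chi-square per gene 0.855 over 20795 genes), although the 21 most abundant genes differed more (20.7 per gene). The parental pair differed by more (1.85 per gene over 23163 genes), and its 17 most abundant genes differed by far more (801 per gene). The Tax-R libraries were kept as 2 samples, and with their mean as 1 sample 8794 genes passed the test, against 10421 with both. Across 17892 genes tested in both lines, MDA-MB-436 Tax-R libraries were closer in rank to SUM159PT Tax-R libraries (Spearman's rho 0.985) than to their own parental cells (0.960). Parental MDA-MB-436 and parental SUM159PT libraries stood at 0.968, and between Tax-R groups of the lines 140 genes lay at least 4-fold apart, against 511 between Tax-R and parental MDA-MB-436. Library preparation, cell identity and a shared response cannot be told apart from these labels. The mesenchymal markers VIM and CDH2 were present in all 4 libraries. Luminal markers were mixed, with ESR1 and EPCAM low but the keratins KRT8 and KRT18 well expressed in all 4. The luminal list summed to 3121 and 3195 in Tax-R libraries, against 4369 and 4489.7 in parental libraries. ESR1 had 14 and 14.4 in Tax-R libraries, against 18.8 and 18.3 in parental libraries, and KRT8 had 1270.1 and 1353 in Tax-R libraries, against 2067 and 2080.1 in parental libraries (-0.66 ± 0.039).

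Changes are Tax-R minus parental on the log2(normalized count + 1) scale ± SE (n = 2 each), and a gene is called higher or lower when limma's adjusted p was below 0.05. The test called 54.6% of the 19085 genes, 5282 (27.7%) of them higher in Tax-R cells and 5139 (26.9%) lower. DESeq2 on recovered reads called 2670 higher and 3243 lower. Tax-R and parental libraries did not overlap for 77.1% of the genes. Changes of at least 2-fold were far less even, with 541 genes (2.83%) higher and 1752 (9.18%) lower. After quantile normalization the same rule gave 1003 higher and 1300 lower, so the direction split at 2-fold depends on the scaling. The median over all genes was 0.012. Large changes were concentrated among weakly expressed genes. At a table mean of 10 to 30, 4.55% of 3734 genes were at least 2-fold higher and 21.8% at least 2-fold lower. At a mean of at least 1000, the shares were 0.618% and 0.457% of 3719 genes.

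**Figure D1:**
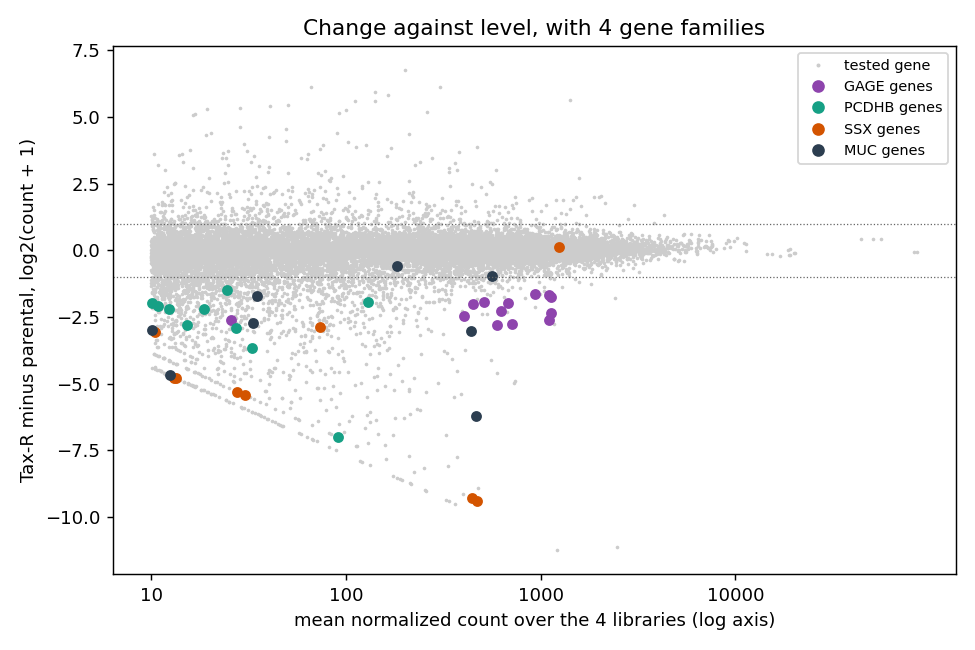
Each grey point is a tested gene, with its mean normalized count over the 4 libraries on a log axis and its change, Tax-R minus parental, on the log2(count + 1) axis. Coloured points are the GAGE, PCDHB, SSX and MUC genes; dotted lines mark a 2-fold change, and the cloud widens downward at low counts.

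Genes on either side of ABCB1 on chromosome 7 rose together. Of 14 tested genes of the neighbour list, 12 were higher, every one of the 12 at least 2-fold, and 2 were lower, with a list median of 2.01 against 0.012 for all genes. In gene order from GENCODE v29, 12 consecutive protein-coding genes from GRM3 to SRI were each called higher and at least 2-fold. The run ended at SEMA3D on one side (-0.20 ± 0.059) and at STEAP4 on the other (-1.61 ± 0.16), and both of those were lower. The SEMA3D call was lost under DESeq2 (adjusted p = 0.25) and when Tax-R replicate 1 (-0.18), parental replicate 1 (-0.21) or parental replicate 2 (-0.20) was left out. DNA copy number was not measured in these files.

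KIAA1324L, which encodes a transmembrane protein of the secretory pathway, had 3272 and 3269 normalized counts in Tax-R libraries, against 808 and 782 in parental libraries (2.04 ± 0.035). DMTF1, a cyclin D-binding transcription factor, had 4662 and 4577 against 1469 and 1403 (1.69 ± 0.036). TMEM243 stood at 1183 and 1190.2 in Tax-R cells and 292 and 299 in parental cells (2.004 ± 0.044). In each of these genes the 2 Tax-R libraries lay close together and far above both parental libraries.

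CROT, the peroxisomal carnitine octanoyltransferase, had 2448 and 2413 in Tax-R libraries and 605 and 598 in parental libraries (2.01 ± 0.036). ABCB4, which flips phosphatidylcholine across the canalicular membrane of hepatocytes, had 114 and 123 against 6.82 and 11.6 (3.59 ± 0.24). RUNDC3B had 723 and 701 against 59.7 and 49.1 (3.69 ± 0.10). RUNDC3B overlaps ABCB1 on the opposite strand, and since no source used here gives the strandedness of the counting, reads of the pair may be shared. The same limit holds for DMTF1 with TMEM243 and for DBF4 with SLC25A40, which overlap on opposite strands. ABCB4 is similar in sequence to ABCB1, so part of its count may also come from ABCB1 reads; neither share was tested.

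SLC25A40, a mitochondrial carrier, and DBF4, the activator of the CDC7 kinase at replication origins, are divergent neighbours. SLC25A40 had 2308 and 2309.5 in Tax-R libraries, against 622 and 630.1 in parental libraries (1.88 ± 0.036), and DBF4 had 3315 and 3289 against 919 and 998 (1.78 ± 0.042). ADAM22, a catalytically inactive member of the ADAM family that binds LGI proteins, had 2728 and 2749.7 against 429 and 407 (2.71 ± 0.04). SRI, which encodes the calcium-binding protein sorcin, had 3052 and 2946 against 741 and 760.2 (1.997 ± 0.037). The glutamate receptor gene GRM3 had 65.1 and 47.2 in Tax-R libraries, against 1.7 and 0.963 in parental libraries, a mean 42.1-fold (95% counting interval 13.8 to 203) higher. The noncoding gene TP53TG1 was higher as well (2.10 ± 0.11).

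**Figure D2:**
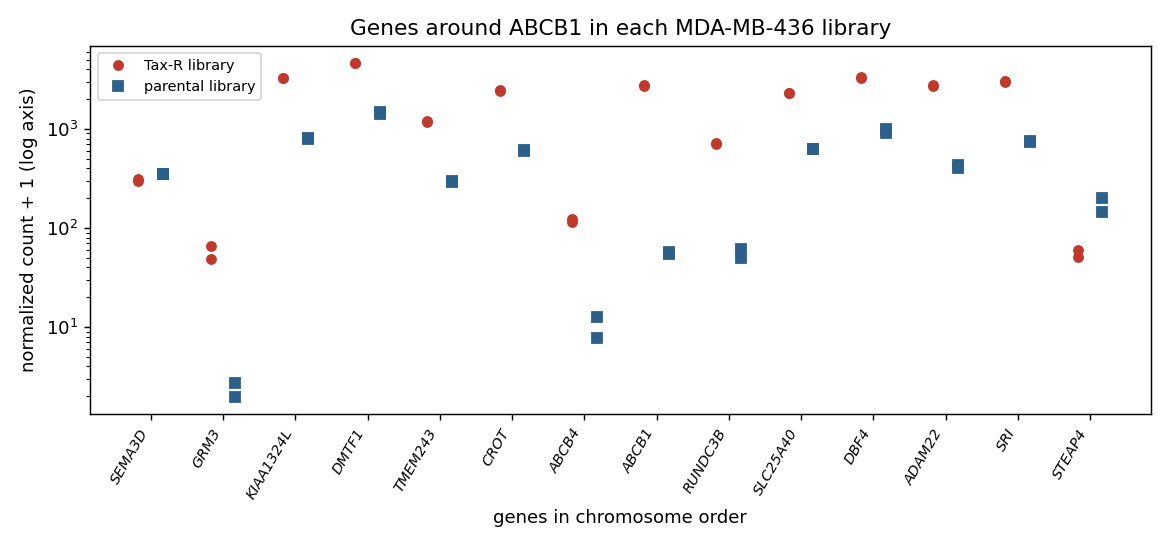
Normalized count + 1 on a log axis for each Tax-R library (circles, left) and parental library (squares, right), for the protein-coding genes from SEMA3D to STEAP4 in chromosome order. The 12 genes between these ends have both Tax-R libraries above both parental libraries, while SEMA3D and STEAP4 have them below.

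Promoter windows from RefSeq (GRCh38.p14, 300 bases each) are shown here for 3 genes because these genes carry the chromosome 7 result and, for COL11A1, a loss of all Tax-R reads described further on. Capitals mark CCAAT or its complement ATTGG, and GGGCGG or its complement CCGCCC, searched on both strands. RefSeq gives ABCB1 a downstream start at chr7:87600835-87601134 and an upstream start at chr7:87713246-87713545, both on the minus strand. DBF4 lies on the plus strand at chr7:87876243-87876542, and the COL11A1 window on the minus strand at chr1:103108473-103108772.
ABCB1 downstream: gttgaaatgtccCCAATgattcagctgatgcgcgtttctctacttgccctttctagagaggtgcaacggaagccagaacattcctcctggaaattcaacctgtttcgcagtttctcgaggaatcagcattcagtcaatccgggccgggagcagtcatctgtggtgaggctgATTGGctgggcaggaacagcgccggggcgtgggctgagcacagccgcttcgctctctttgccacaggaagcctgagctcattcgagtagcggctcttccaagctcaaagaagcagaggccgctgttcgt
ABCB1 upstream: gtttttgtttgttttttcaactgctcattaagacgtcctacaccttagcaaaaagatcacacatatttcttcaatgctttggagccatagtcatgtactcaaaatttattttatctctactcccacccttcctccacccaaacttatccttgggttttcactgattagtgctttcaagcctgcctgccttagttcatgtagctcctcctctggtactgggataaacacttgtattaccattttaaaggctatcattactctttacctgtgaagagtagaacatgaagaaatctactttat
DBF4: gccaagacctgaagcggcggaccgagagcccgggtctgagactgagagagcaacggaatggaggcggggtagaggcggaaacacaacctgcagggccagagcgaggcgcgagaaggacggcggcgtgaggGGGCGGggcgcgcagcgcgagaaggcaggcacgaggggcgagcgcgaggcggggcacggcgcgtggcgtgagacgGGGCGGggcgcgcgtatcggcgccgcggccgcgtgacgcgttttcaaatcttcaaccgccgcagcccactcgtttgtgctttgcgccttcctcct
COL11A1: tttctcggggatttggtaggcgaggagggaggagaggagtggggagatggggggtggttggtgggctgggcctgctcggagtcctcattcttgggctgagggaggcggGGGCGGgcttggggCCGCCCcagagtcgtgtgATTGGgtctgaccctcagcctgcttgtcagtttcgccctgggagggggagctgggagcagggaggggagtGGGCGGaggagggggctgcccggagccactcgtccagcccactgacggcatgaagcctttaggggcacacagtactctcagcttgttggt

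The downstream ABCB1 window held 16 CG dinucleotides and 2 CCAAT matches, and the upstream window held 1 CG and no match to either motif. The DBF4 window held 44 CG and 2 GGGCGG matches, and the COL11A1 window 12 CG, 1 CCAAT match and 3 GGGCGG matches. Over 35116 windows of 27305 genes, 34.6% held CCAAT and 45.0% held GGGCGG, with a median of 14 CG. Of the 12 genes in the run, 10 had a window, 14 windows in all, of which 9 held CCAAT and 10 held GGGCGG. Some of these windows overlap, namely 2 of TMEM243, and those of DBF4 and SLC25A40 on opposite strands. The same matches are therefore counted more than once, and enrichment was not tested. Gene counts do not show which ABCB1 start was used.

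Outside the run the rise continued in steps along the chromosome. The 11 protein-coding genes from KIAA1324L to SRI had a median of 2.01, the next 11 from STEAP4 to CYP51A1 a median of 1.45, and the 11 after those from LRRD1 to SAMD9L a median of 1.34. AKAP9, a scaffold at the Golgi and centrosome, had 6160.5 and 6203 in Tax-R libraries, against 2463 and 2439.5 in parental libraries (1.33 ± 0.033). CDK6, the cyclin D-dependent kinase, had 5106 and 5149.5 in Tax-R libraries, against 2484 and 2603 in parental libraries (1.01 ± 0.036). SAMD9 marked the end of that step (0.22 ± 0.037), and its neighbour SAMD9L did not pass the test (584 and 582 against 557 and 551, limma adjusted p = 0.19).

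Beyond SAMD9L, 12 successive blocks of 11 genes, from VPS50 to IMMP2L, had medians between 0.47 and 0.83, with 8 to 11 of 11 genes higher in each. The 3 blocks after these, from DOCK4 to SND1, were lower, with medians of -0.94, -0.54 and -0.69, and 11, 10 and 10 genes called lower. On the other side of ABCB1, PCLO (1.78 ± 0.043), the growth factor gene HGF (2.01 ± 0.041), the guidance factors SEMA3E (1.82 ± 0.10) and SEMA3A (0.98 ± 0.036), and SEMA3C (0.76 ± 0.037) were higher. The block from SSC4D to PHTF2 next to them had a median of -0.13. CACNA2D1, an auxiliary calcium channel subunit inside this stretch, went the other way, with 9.01 and 10.3 in Tax-R libraries and 275 and 285 in parental libraries (-4.73 ± 0.16).

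SUM159PT Tax-R cells had a similar profile around ABCB1, in a comparison where 3.21% of 18370 genes were at least 2-fold higher and 7.75% at least 2-fold lower. The block from KIAA1324L to SRI had a median change of 2.06 there, and the next pair of blocks 1.64 and 1.58. Over 595 protein-coding genes of chromosome 7 the changes in the 2 lines had a Spearman's rho of 0.782, against 0.442 over 11849 genes on other chromosomes, as a description across genes that are not independent replicates. Single genes of the stretch still differed between lines. ABCB1 itself had 2733 and 2789 in Tax-R libraries, against 56.3 and 54 in parental libraries, and rose more in MDA-MB-436 than in SUM159PT (difference 2.71 ± 0.063, limma adjusted p = 7.78e-12), and HGF rose more in SUM159PT (difference -3.39 ± 0.12, limma adjusted p = 3.83e-10).

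Running medians over 9 neighbouring protein-coding genes, a scan chosen after the data were seen, reached at least 1 in 43 of 12817 windows (0.335%). Stretches were picked by these medians, so the counts of genes changed at least 2-fold within them follow in part from the rule. Of these, 37 lay in the chromosome 7 stretch between SEMA3C and GNG11, where 41 of 45 genes were higher and 34 at least 2-fold. The other 6 lay on chromosome X between MAGEC2 and GABRQ, where 15 of 16 genes were higher and 8 at least 2-fold. There the phosphatase gene MTM1 had 509 and 459.6 in Tax-R libraries, against 202 and 203 in parental libraries (1.25 ± 0.067), its neighbour MTMR1 977 and 1004 against 406 and 448 (1.21 ± 0.053), and MAMLD1 486 and 468 against 194 and 193 (1.30 ± 0.061). The SUM159PT median over the same 16 genes was 0.24.

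Medians of -1 or below were reached in 145 windows (1.13%), in 20 stretches. The counts of lower genes in these stretches, here and in the next paragraph, likewise follow in part from that rule. A stretch on chromosome 12 from PHC1 to PRR4 held lectin-like receptor genes, and 12 of 20 genes were at least 2-fold lower. OLR1, the receptor for oxidised LDL, and CD69, an activation antigen of leukocytes, had no read in either Tax-R library. Parental libraries had 632 and 672 for OLR1 and 280.4 and 251 for CD69. With 3 reads over both Tax-R libraries taken as the limit of a count of 0, OLR1 was at least 429-fold lower and CD69 at least 175-fold lower. CLEC2B, which encodes the ligand AICL of an NK cell receptor, fell to 16 and 8.21 in Tax-R cells, against 499 and 505 in parental cells (-5.33 ± 0.23). KLRC2 and KLRC1, which encode NKG2 receptor chains, fell too (-1.14 ± 0.12 and -1.17 ± 0.23).

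A stretch on chromosome 11 from TSPAN4 to NUP98 had 27 of 27 genes lower, 14 of them at least 2-fold, and included the secreted mucins and imprinted genes. Stretches on chromosome 1 covered the HIST2 histone genes (8 of 16 genes at least 2-fold lower) and the region from C1orf116 to HHAT (8 of 16). The metalloproteinase genes on chromosome 11, from CNTN5 to DYNC2H1, had 6 of 12 genes at least 2-fold lower. Towards the end of chromosome 7, 21 of 21 genes from ZNF786 to SLC4A2 were lower, 12 of them at least 2-fold. That stretch had a median of -1.05 in MDA-MB-436 and -0.74 in SUM159PT. On chromosome 19, 5 stretches qualified, of which 4 were made up largely of zinc finger genes. In the stretch from PPP2R1A to ZNF813, 10 of 18 genes were at least 2-fold lower, with a median of -1.78 in MDA-MB-436 and -0.83 in SUM159PT.

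Among 256 gene families defined by the stem of the symbol with at least 8 tested members, 5 had most of their members at least 2-fold lower, set against 9.18% of all genes. They were GAGE, PCDHB, SSX, MUC and TNFSF, and the last is described with the immune genes. All 13 tested GAGE genes were at least 2-fold lower (median -2.28), and so were all 13 in SUM159PT (median -2.15). These cancer-testis antigens are near-identical copies on chromosome X, so their reads can be split among them and the members are not independent. GAGE12F had 284 and 332 in Tax-R libraries, against 2058 and 1741 in parental libraries (-2.62 ± 0.082), and GAGE1 had 528 and 531 against 1777 and 1592 (-1.66 ± 0.051). All 10 tested PCDHB genes, the clustered protocadherins of cell recognition, were at least 2-fold lower (median -2.20). PCDHB2 had 54 and 52.3 against 214 and 201 (-1.94 ± 0.11), and PCDHB5 had 1 read in both Tax-R libraries together, against 199 and 164 normalized counts in parental libraries, a mean 363-fold (95% counting interval 64.6 to 14330.00) lower. The PCDHB stretch had a median of -1.71 in MDA-MB-436 and 0.054 in SUM159PT, and PCDHB16 was one member that differed (difference -2.87 ± 0.40, limma adjusted p = 8.69e-05).

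Of 9 SSX genes, 8 were at least 2-fold lower (median -4.78, or -4.14 with members near 0 at their bound). In SUM159PT, 7 of 8 tested SSX genes were at least 2-fold lower (median -6.97). The MDA-MB-436 median of the SSX genes depended on how genes near 0 were handled. It was -3.28 after quantile normalization, -6.60 by edgeR and -6.91 by DESeq2. SSX2 and SSX2B, cancer-testis antigens with near-identical sequence, had 1 read each over the Tax-R libraries. Parental libraries had 903 and 979 normalized counts for SSX2 and 859 and 921 for SSX2B. Mucins fell in 8 of 8 genes, 6 of them at least 2-fold, and all 5 mucins tested in SUM159PT fell at least 2-fold. MUC2, the intestinal gel mucin, had no Tax-R read, against 29 and 21.2 in parental libraries, at least 16.5-fold lower, and MUC6 had 9.01 and 7.18 against 51.1 and 66.5 (-2.71 ± 0.25). The zinc finger genes with a ZNF symbol, many of them transcriptional repressors with a KRAB domain, had 79 of 418 members higher and 204 lower, of which 7 and 79 moved by 2-fold or more. ZNF83 fell to 8.01 and 13.3 in Tax-R libraries, against 413 and 408 in parental libraries (-5.18 ± 0.20), while ZNF480 in the same stretch rose (0.54 ± 0.044). No family median named here changed sign under quantile, TMM or DESeq2 scaling.

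In Tax-R cells 104 genes had at most 3 reads over both libraries although their parental mean was at least 50, and 46 of them had no Tax-R read. The reverse rule was met by 5 genes, namely AMBN, CORO2B, GRM3, HCN4 and PHF21B. Of the 104, 83 are protein-coding in GENCODE v29, 10 lie on chromosome X and 8 on chromosome 19. Of all 19085 genes tested, 13015 are protein-coding, 479 of them on chromosome X and 885 on chromosome 19. The chromosome X genes include SSX2, SSX2B, SSX4 and SSX4B, of a family with near-identical copies, so they are not all independent. Whether any of these shares differs from that of all genes was not tested. COL11A1, a fibrillar collagen chain, had no Tax-R read, against 2422 and 2409 in parental libraries, at least 1589-fold lower. BACE2, a protease that cleaves the amyloid precursor protein, was at least 481-fold lower, with 0 and 0 against 721 and 741. EPHA3, an ephrin receptor, was at least 446-fold lower, with 0 and 0 against 694 and 661.

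NID1, the basement membrane linker nidogen, had 1 Tax-R read in all, against 815 and 786 in parental libraries, a mean 1599.6-fold (95% counting interval 285 to 62736) lower. EMB, a partner of monocarboxylate transporters, had 2 Tax-R reads, against 940.1 and 966 in parental libraries, 941-fold (95% counting interval 261 to 7794) lower. PCDH9, a protocadherin, had no Tax-R read, against 526 and 492 in parental libraries, at least 335-fold lower. FLRT2, an adhesion protein that binds UNC5 receptors, had none either, against 374 and 385, at least 249.8-fold lower.

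EPDR1, a secreted ependymin-related protein, had 0 and 0 against 499 and 532, at least 339-fold lower. FOCAD, a focal adhesion protein and tumour suppressor in glioma, had 0 and 0 in Tax-R libraries, against 437 and 414 in parental libraries, at least 280.1-fold lower. The noncoding genes LINC01606 and RP11-169F17.1 were also without a Tax-R read, at least 284-fold and at least 254-fold lower. Of the 104 genes, 55 had a parental mean of at least 50 in SUM159PT, where all 55 were at least 4-fold lower in Tax-R cells and 30 of them had at most 3 Tax-R reads. Across the 17892 genes tested in both lines, 406 were at least 4-fold lower in SUM159PT Tax-R cells. The share of all SUM159PT genes with at most 3 Tax-R reads was not counted.

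The genes with the highest fold changes were of mixed function. MAGEA11, a cancer-testis antigen and androgen receptor coactivator, had 408 and 395 in Tax-R libraries, against 2.56 and 2.89 in parental libraries (6.76 ± 0.18). APCDD1L, related to a Wnt inhibitor, had 606 and 596 against 5.97 and 9.63 (6.13 ± 0.19), and its antisense gene APCDD1L-AS1 rose with it (5.17 ± 0.22), though reads of the pair may be shared. SVIP, an inhibitor of ER-associated degradation, had 279 and 277 against 3.41 and 3.85 (5.92 ± 0.19).

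SRL, a calcium-binding protein of the sarcoplasmic reticulum, had 305 and 345 in Tax-R libraries and 5.97 and 3.85 in parental libraries (5.81 ± 0.21). The secreted signal BMP7 had 279 and 277 against 3.41 and 6.74 (5.58 ± 0.25), and KCNQ3, a voltage-gated potassium channel, 220.2 and 218 against 2.56 and 4.82 (5.59 ± 0.25). PRSS35 (5.27 ± 0.21), the protease inhibitor TFPI2 (5.16 ± 0.22), the protein kinase A subunit PRKAR2B (4.35 ± 0.17) and ARHGEF4 (4.06 ± 0.25) were also among the 15 highest. CORO2B, a coronin, and PHF21B had at most 3 parental reads and were 145-fold (95% counting interval 39.6 to 1200.00) and 74.8-fold (95% counting interval 24.7 to 358) higher.

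By difference of group means, the largest rises included EEF1A1, the translation elongation factor, with 57879 and 58537 in Tax-R libraries, against 44435 and 42918 in parental libraries (0.41 ± 0.059). Its processed copies EEF1A1P5, EEF1A1P6 and EEF1A1P11 share its reads and moved by 0.43, 0.44 and 0.35. EEF1A1 stood at a change of 0 after quantile normalization. That scaling gives a gene with the same rank in every library the same value, so this 0 does not measure the rise. EEF1A1 also lost its call without either Tax-R library (0.42 without replicate 1 and 0.41 without replicate 2). NPM1, a nucleolar chaperone, had 7689.8 and 7763 against 5176 and 5299 (0.56 ± 0.035), PTMA, a nuclear protein of growing cells, 8559.6 and 8856 against 5744 and 6068 (0.56 ± 0.04), and B2M, the class I light chain, 10139 and 10648 against 7974 and 7790.5 (0.40 ± 0.04).

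The largest falls by group mean, besides COL11A1, included the noncoding RNA NEAT1, a scaffold of paraspeckles, with 4680.2 and 4758 in Tax-R libraries, against 5734 and 6687 in parental libraries (-0.39 ± 0.059). COL7A1, the anchoring fibril collagen, had 1091 and 1066 in Tax-R libraries, against 3789.5 and 3701 in parental libraries (-1.79 ± 0.035). PLXNA1, a semaphorin receptor, had 2262 and 2395 against 4132 and 4085 (-0.82 ± 0.037), and SLC5A3, the sodium/myo-inositol carrier, 1068 and 1069 against 2569 and 2513 (-1.25 ± 0.034). The desmosomal protein DSP had 2297 and 2329 against 3686 and 3657 (-0.67 ± 0.033). MAGEA2 and MAGEA2B, near-identical cancer-testis genes whose reads may be split, both fell. MAGEA2 had 43 and 45.1 in Tax-R libraries, against 1436 and 1381 in parental libraries (-4.97 ± 0.069), and MAGEA2B had 47 and 46.2 against 1454 and 1416 (-4.91 ± 0.065).

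Beside these losses, PTPRC, which encodes the leukocyte antigen CD45, had 242 and 376 normalized counts in Tax-R libraries, against 1982 and 2113 in parental libraries (-2.76 ± 0.14). Of the 12 leukocyte markers, 9 were listed and 4 reached 10 in a library. Their summed level was 300.3 and 431 in Tax-R libraries, against 2105 and 2207 in parental libraries, nearly all of it PTPRC. CD3E was near 0 in both groups, with 0 and 0 in Tax-R libraries and 2.56 and 0 in parental libraries. CD14 had 10 and 6.16 in Tax-R libraries, against 25.6 and 18.3 in parental libraries, and ITGAM had 2 and 0 against 40.9 and 31.8. CD68 went the other way at counts too low to be tested, with 3 and 3.08 against 1.7 and 0. Of the 4 leukocyte markers tested, 3 were lower, all 3 at least 2-fold, and 1 was not called (-0.043). The endothelial list summed to 478 and 514 in Tax-R libraries, against 716 and 702 in parental libraries. Of its 4 tested members, 3 were lower, 1 of them at least 2-fold, and 1 was not called (-0.064). EMCN (endomucin) had 0 and 1.03 in Tax-R libraries, against 81 and 91.5 in parental libraries. PECAM1 fell less, with 142 and 170 against 234 and 212. CDH5, too low to be tested, had 0 and 0 against 9.38 and 7.71. The part of other cells in the changes was not tested.

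The list counts below are set against the shares over all 19085 genes, 27.7% called higher and 26.9% called lower, with 2.83% at least 2-fold higher and 9.18% at least 2-fold lower. Many lists lie near those shares, and no list was tested as a set.

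Among ABC transporters other than ABCB1, 10 of 23 were higher and 9 lower, of which 2 and 1 moved by 2-fold or more. Apart from ABCB4, only the cholesterol exporter ABCG1 rose at least 2-fold, to 155 and 238 in Tax-R libraries, against 107 and 69.4 in parental libraries (1.15 ± 0.21), a call lost without parental replicate 2 (0.85). ABCA3, a phospholipid transporter of surfactant, fell (-1.98 ± 0.12), and so did the mitochondrial ABCB8 (-0.70 ± 0.05). Of 21 tubulins, 7 were higher, 4 lower and none at least 2-fold changed, against 27.7% higher and 26.9% lower over all genes. TUBB had 7396 and 7558 against 5937 and 5628 (0.37 ± 0.039) and TUBB6 1313 and 1324 against 1005 and 1075 (0.34 ± 0.042). TUBB3, the neuronal isotype often linked to taxane response, had 143 and 115 in Tax-R libraries, against 254 and 218 in parental libraries (-0.87 ± 0.12).

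Of 27 microtubule-associated proteins and stathmins, 9 were higher and 6 lower. STMN3, a microtubule-destabilising stathmin, was the only one at least 2-fold lower, with 49 and 69.8 against 494 and 482 (-3.04 ± 0.14), and MAP7D3 (0.79 ± 0.039) and MAP1A (0.67 ± 0.052) were higher. In the BCL2 family, 6 of 17 genes were higher and 7 lower, and the 3 at least 2-fold lower were all pro-apoptotic BH3-only genes. BBC3 (PUMA) had 63.1 and 99.5 against 217 and 211 (-1.42 ± 0.17), PMAIP1 (NOXA) 228 and 221 against 471 and 496 (-1.10 ± 0.06) and BCL2L11 (BIM) 227 and 259.6 against 530.1 and 483 (-1.06 ± 0.075). The anti-apoptotic gene BCL2 itself had 514 and 530.4 against 326 and 311 (0.71 ± 0.054); it was picked out after its values were seen.

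Of 22 p53 targets, 3 were higher and 10 lower, 3 of these at least 2-fold, against 26.9% lower and 9.18% at least 2-fold lower over all genes. Besides BBC3, BTG2 (-1.09 ± 0.065) and the stress cytokine GDF15 (-1.01 ± 0.07) fell that far, and CDKN1A, the p21 cell cycle inhibitor, fell to 370.3 and 428 in Tax-R libraries, against 744 and 749 in parental libraries (-0.91 ± 0.064). NRF2 targets and drug-metabolising enzymes were mixed, with 11 of 28 higher and 7 lower. CYP1A1, the aryl hydrocarbon receptor target, fell (-2.11 ± 0.12), as did GSTM2 (-1.42 ± 0.21), while the epoxygenase CYP2J2 rose to 75.1 and 86.2, against 24.7 and 35.6 (1.41 ± 0.20).

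Collagens had 6 of 28 members higher and 15 lower, 9 of them at least 2-fold, with a median of -0.33. COL3A1, the collagen of reticular fibres, fell to 25 and 34.9 in Tax-R libraries, against 771 and 651 in parental libraries (-4.54 ± 0.14). COL4A2, a basement membrane chain, had 1 Tax-R read, against 26.4 and 26 in parental libraries, 51.1-fold (95% counting interval 8.96 to 2087) lower, and COL15A1 fell as well (-3.13 ± 0.40). LOX, which crosslinks collagen, had 37 and 19.5 against 242 and 250.5 (-3.15 ± 0.23), and LOXL1 was higher (1.495 ± 0.24). Of 21 collagen processing enzymes, 8 were higher and 5 lower. Among metalloproteinases and their inhibitors, 7 of 26 were higher and 14 lower. The aggrecanase ADAMTS5 had 1 Tax-R read, against 26.4 and 24.1 in parental libraries, 50.5-fold (95% counting interval 8.64 to 2016) lower. The collagenases MMP1 (-3.44 ± 0.14) and MMP13 (-2.97 ± 0.26) fell, and ADAMTS9, a proteoglycan-cleaving enzyme, rose to 446 and 429.9 against 43.5 and 43.4 (3.31 ± 0.093).

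Integrins and laminins had 8 of 26 members higher and 16 lower. ITGB4, the hemidesmosome integrin, had 17 and 17.4 against 146 and 145 (-3.003 ± 0.16), and LAMA4 (-3.09 ± 0.25) fell with it. Cadherins had 13 of 23 members lower, 11 of them at least 2-fold, and 8 higher, against 26.9%, 9.18% and 27.7% of all genes. CDH10 had 3 Tax-R reads in all, against 672 and 667 in parental libraries, 442-fold (95% counting interval 151 to 2147) lower. CDH8 had 2 Tax-R reads, against 139.8 and 146, 143-fold (95% counting interval 38.9 to 1174) lower, and CDH2 (N-cadherin) was slightly higher (0.25 ± 0.038). Tight junction and desmosome genes had 6 of 21 members higher and 10 lower, 5 of them at least 2-fold. CLDN1, a tight junction claudin, fell to 39 and 45.1 against 607 and 579 (-3.79 ± 0.10). The basal keratin KRT17 had 3 Tax-R reads, against 300.02 and 281 in parental libraries, 192-fold (95% counting interval 65.5 to 935) lower, and TP63, the basal transcription factor, had 539 and 648 against 1360.3 and 1360.4 (-1.20 ± 0.069).

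Of 17 epithelial-mesenchymal regulators, 8 were higher and 5 lower, none at least 2-fold. SNAI1 (-0.87 ± 0.065) and TCF4 (-0.89 ± 0.052) were lower and FOXC2 (0.64 ± 0.11) higher. Among 30 matricellular proteins and proteoglycans, 9 were higher and 15 lower, with FBLN1 (fibulin) at 345 and 399 in Tax-R libraries, against 1303 and 1276 in parental libraries (-1.79 ± 0.061). FAP, the fibroblast activation protease, fell to 22 and 27.7, against 279 and 243 (-3.34 ± 0.15).

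Of 31 MAPK feedback and immediate early genes, 22 were lower and 3 higher (1 higher after quantile normalization, 0 by DESeq2), with a median of -0.38. EGR2, an early growth response factor, had 11 and 13.3 against 303 and 257 (-4.42 ± 0.16), EGR3 4 and 13.3 against 62.2 and 80.9 (-3.09 ± 0.40) and FOSB 51 and 105 against 313 and 282 (-2.01 ± 0.24). JUNB fell to 141 and 164 in Tax-R libraries, against 431 and 452 in parental libraries (-1.53 ± 0.081). The ERK phosphatase DUSP6, named after its values were seen, fell as well (-1.37 ± 0.051). EGR3 lost its call without parental replicate 2 (-2.90) and FOSB without parental replicate 1 (-1.93).

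The Notch pathway had 14 of 19 members lower and 2 higher, with a median of -0.53, against 26.9% lower and 27.7% higher over all genes. The ligand JAG2 had 14 and 12.3 against 74.2 and 87.7 (-2.53 ± 0.20), the receptor NOTCH3 9.01 and 6.16 against 40.9 and 51.1 (-2.46 ± 0.27), and the glycosyltransferase MFNG, which tunes Notch ligand binding, 13 and 8.21 against 39.2 and 53 (-2.04 ± 0.28). DTX4, a Notch regulator, had 1 Tax-R read, against 42.6 and 46.2 in parental libraries, 86.6-fold (95% counting interval 15.4 to 3503) lower.

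Of 41 TGF-beta and BMP pathway genes, 12 were higher and 18 lower. BMP2 had no Tax-R read, against 52 and 48.2 in parental libraries, at least 32.9-fold lower, and the receptor BMPR1B fell (-2.76 ± 0.24), while BMP7 rose as given above. In the Wnt pathway, 5 of 28 genes were higher and 15 lower. The receptor FZD1, which lies in the chromosome 7 stretch, had 693 and 750.00 against 211 and 187 (1.86 ± 0.069), the transcription factor LEF1 40 and 42.1 against 5.11 and 7.71 (2.53 ± 0.28), and the inhibitor NKD2 4 and 4.1 against 27.3 and 27.9 (-2.501 ± 0.29). Of 22 growth factor ligands, 10 were higher and 11 lower, against 27.7% and 26.9% of all genes. FGF1 rose to 110.1 and 105 in Tax-R libraries, against 21.3 and 20.2 in parental libraries (2.32 ± 0.16), and the neurotrophin BDNF fell to 31 and 26.7, against 222 and 216 (-2.88 ± 0.13).

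Receptor tyrosine kinases had 5 of 23 members higher and 10 lower. NTRK2, the BDNF receptor TrkB, had 2 Tax-R reads, against 81.8 and 70.3 in parental libraries, 75.1-fold (95% counting interval 20.6 to 630.2) lower, and FGFR3 fell (-2.83 ± 0.27). Of 14 ephrins and Eph receptors, 3 were higher and 7 lower. EPHB6, a kinase-dead receptor on chromosome 7, rose to 1081 and 1110.1 against 338 and 334 (1.70 ± 0.044). Among semaphorins, netrins and slits with their receptors, 11 of 31 were higher and 12 lower, and PLXNA2 fell to 12 and 25.6, against 608 and 550.1 (-4.96 ± 0.25). YAP and TEAD targets had 8 of 23 higher and 9 lower, with ANKRD1 (-3.69 ± 0.27) and the IGF-binding protein IGFBP3 (-2.75 ± 0.17) lowest.

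TNF family ligands and receptors had 15 of 25 members lower, 10 of them at least 2-fold, and 2 higher, with a median of -0.51. Both higher members were at least 2-fold higher, the larger change being 2.15. TNFSF15 had 1 Tax-R read, against 101 and 86.7 in parental libraries, 183-fold (95% counting interval 33.2 to 7430.2) lower. NGFR, the low-affinity neurotrophin receptor, had 8.01 and 9.23 against 107 and 109.8 (-3.51 ± 0.20), and TNFSF10 (TRAIL) 4 and 3.08 against 52 and 40.5 (-3.38 ± 0.29). Checkpoint and NKG2D ligands had 15 of 23 members lower, 8 of them at least 2-fold, and 6 higher. IDO1, which degrades tryptophan, had 6.01 and 9.23 in Tax-R libraries, against 118 and 118 in parental libraries (-3.81 ± 0.23), and the NKG2D ligands ULBP1 (-1.49 ± 0.19) and ULBP3 (-1.65 ± 0.13) fell.

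Class I presentation genes had 11 of 21 members higher and 4 lower, none at least 2-fold. Of 6 class II presentation genes, none was higher and 3 were lower, among them CD74, the invariant chain, with 9.01 and 6.16 against 38.4 and 29.9 (-2.04 ± 0.29). ERAP1, the class I peptide-trimming protease, rose (0.45 ± 0.038), and HLA-E fell (-0.46 ± 0.051). Interferon receptors, JAKs, STATs and IRFs had 3 of 26 higher and 10 lower. IRF7, an inducer of interferon genes, had 35 and 41 in Tax-R libraries, against 111 and 109.8 in parental libraries (-1.52 ± 0.15), and STAT3 1440.3 and 1494 against 2099 and 2182 (-0.54 ± 0.037). Complement and coagulation genes had 10 of 30 higher and 12 lower. C4A and C4B are near-identical copies whose reads may be split. C4A had 42 and 68.7 in Tax-R libraries, against 216 and 205 in parental libraries, and C4B had 35 and 56.4 against 207 and 187. Interleukin and toll-like receptors had 9 of 31 higher and 13 lower, with IL2RG the lowest (-2.62 ± 0.34).

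Of 49 oxidative phosphorylation genes, 16 were higher and 3 lower, none at least 2-fold, and DESeq2 called 4 and 1. NDUFA6 rose (0.45 ± 0.065) and NDUFS7 fell (-0.49 ± 0.091), both subunits of complex I. Glycolysis and hypoxia genes had 16 of 37 higher and 11 lower. SLC16A3, the lactate exporter MCT4, had 448 and 431 against 1474 and 1438 (-1.73 ± 0.042), and CA9, a hypoxia-induced carbonic anhydrase, rose to 324 and 365, against 171 and 196 (0.91 ± 0.086). Cholesterol synthesis genes had 6 of 23 higher and 10 lower, with the sterol sensor INSIG1 at 323 and 428 against 666 and 665 (-0.84 ± 0.10).

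Fatty acid and phospholipid genes had 20 of 37 higher and 9 lower. The desaturase SCD5 rose to 350.3 and 376 in Tax-R libraries, against 72.4 and 85.7 in parental libraries (2.19 ± 0.10). PTGS2 (COX-2) fell to 129 and 141, against 494 and 476 (-1.84 ± 0.071), and PTGES, which makes prostaglandin E2, to 135 and 127, against 490.1 and 455 (-1.84 ± 0.073). FABP4, a fatty acid carrier of adipocytes, had 33 and 41 against 2.56 and 0, 29-fold (95% counting interval 8.94 to 135) higher. Of 36 genes of the amino acid and unfolded protein response, 12 were higher and 13 lower. CBS, of the transsulfuration pathway, had 14 and 14.4 against 124 and 113 (-2.97 ± 0.18), and CHAC1, an ATF4 target that degrades glutathione, 15 and 28.7 against 119 and 119 (-2.46 ± 0.25). Lysosome and autophagy genes had 9 of 35 higher and 13 lower, with the protease CTSH lowest (-2.85 ± 0.11).

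Of 48 DNA repair genes, 34 were higher and 3 lower, none at least 2-fold, with a median of 0.19 against 0.012 for all genes; DESeq2 called 22 and 3. FANCM, a replication fork translocase, had 864 and 883 in Tax-R libraries, against 602 and 622 in parental libraries (0.51 ± 0.042). Mitosis and spindle genes had 10 of 31 higher and 9 lower, none at least 2-fold; KIF18A, the kinesin that sets chromosome alignment, fell (-0.38 ± 0.04) and CCNB2 rose (0.24 ± 0.043). Cyclins, CDKs and inhibitors had 7 of 24 higher and 6 lower, and both members at least 2-fold higher, CDK6 and CDK14 (1.40 ± 0.038), lie in the chromosome 7 stretch.

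Of 42 DNA methylation and chromatin repressor genes, 16 were higher and 14 lower, none at least 2-fold. EZH2, the polycomb methyltransferase, had 962 and 899.8 against 1292 and 1365 (-0.51 ± 0.045), and UHRF2 1974 and 1948 against 1376 and 1291 (0.56 ± 0.039). HOX genes had no member higher and 8 of 18 lower, with HOXC11 at 50 and 54.4 against 135 and 150.3 (-1.43 ± 0.13). Cancer-testis antigens had 15 of 26 members at least 2-fold lower and 2 at least 2-fold higher, with a median of -2.22. In SUM159PT, 15 of 26 were at least 2-fold lower and 1 at least 2-fold higher, with a median of -2.29. This list does not hold MAGEA11, which rose (6.76 ± 0.18). It overlaps the SSX family above, which has near-identical copies, so its members are not all independent. PAGE1 fell to 4 and 4.1 in Tax-R libraries, against 383 and 402 in parental libraries (-6.28 ± 0.17). Imprinted genes had 4 of 16 higher and 9 lower, and the noncoding RNA H19 had 1 Tax-R read, against 37.5 and 36.6 in parental libraries, 72.2-fold (95% counting interval 12.8 to 2936) lower.

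Potassium, sodium and calcium channels had 10 of 32 members at least 2-fold lower and 3 at least 2-fold higher, with a median of -0.48. KCNH5, a voltage-gated potassium channel, had 13 and 8.21 against 183 and 183 (-4.02 ± 0.21). Amino acid, nucleoside and organic ion carriers had 8 of 25 members at least 2-fold lower and 1 at least 2-fold higher, with a median of -0.58, or -0.32 after quantile normalization of the amino acid, nucleoside and organic ion carriers. SLC29A2, an equilibrative nucleoside transporter, fell to 25 and 19.5 in Tax-R libraries, against 222 and 185 in parental libraries (-3.14 ± 0.17), and the neutral amino acid carrier SLC6A15 to 15 and 8.21, against 117 and 106 (-3.21 ± 0.25).

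The difference between the MDA-MB-436 change and the SUM159PT change passed limma's test for 6592 of 17892 genes (36.8%), 3335 higher and 3257 lower in MDA-MB-436. It was called and at least 2-fold in 7.73%. Of 5573 genes called in both lines, 82.3% were called in the same direction and 989, 5.53% of the 17892, in opposite directions. EPHA3, without a read in MDA-MB-436 Tax-R cells, was not called in SUM159PT (-0.99), and the difference passed (limma adjusted p = 2.76e-08). The EPHA3 parental mean in SUM159PT was only 13.9, against 694 and 661 in MDA-MB-436 parental libraries. A fall as large as in MDA-MB-436 could therefore not be seen in SUM159PT. COL7A1 fell in MDA-MB-436 and was not called in SUM159PT (-0.10), a difference of -1.70 ± 0.13 (limma adjusted p = 4.75e-07).

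The loss of PTPRC was smaller in MDA-MB-436 than in SUM159PT (difference 3.73 ± 0.25, limma adjusted p = 1.36e-07). For BMP7, whose SUM159PT change was 6.11, the difference did not pass the test (-0.53 ± 0.36, limma adjusted p = 0.275). The differences for GAGE12G (0.093 ± 0.12, limma adjusted p = 0.59) and ABCB4 (0.63 ± 0.41, limma adjusted p = 0.257) did not pass it either.

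**Figure D3:**
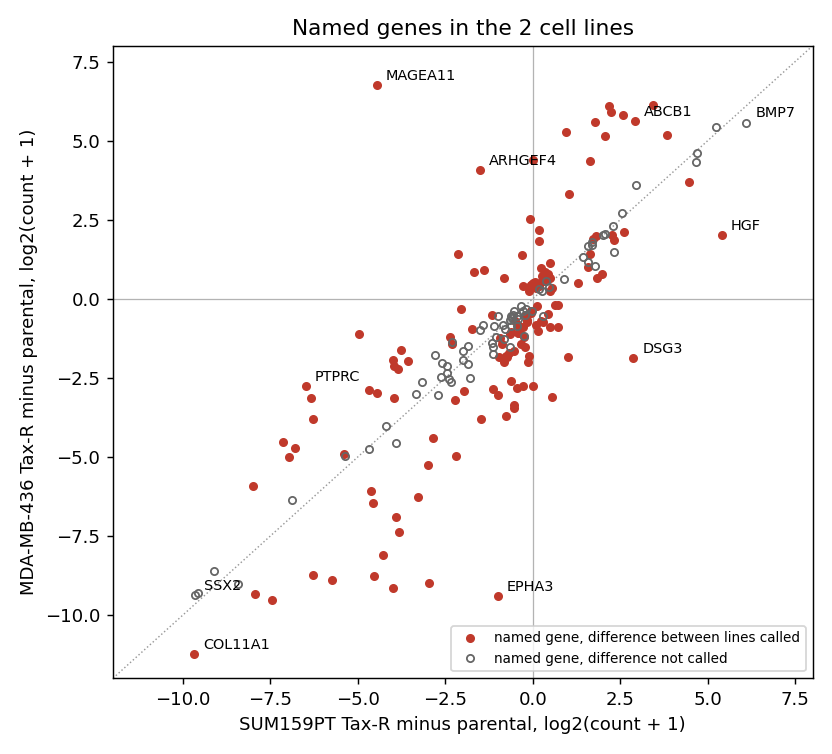
Change of each named gene tested in both lines, MDA-MB-436 on the vertical and SUM159PT on the horizontal axis (Tax-R minus parental, log2 scale), with the line of equal change dotted. Filled points passed the test of the difference between lines; MAGEA11 and ARHGEF4 lie above 0 in MDA-MB-436 and below 0 in SUM159PT, and DSG3 the other way.

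Other MDA-MB-436 libraries gave the same direction for most large changes, though not always the same size. They came from separate experiments with other tables and treatments, so levels are given as CPM of recovered reads with no test. Of the 541 genes at least 2-fold higher in Tax-R cells, 411 had a level there. Of these 411, 90.5% were higher in Tax-R cells with control siRNA than in mock parental cells, against 47.1% of all 15557 genes. Only 1042 of the 1752 genes at least 2-fold lower had a level there. Of these 1042, 87.6% were lower, against 52.9% of all genes with a level. SRI had 841 and 842 CPM in Tax-R cells with control siRNA, against 65.8 and 63.4 in mock cells, DBF4 639 and 642 against 59.4 and 59, and CDK6 678 and 671 against 68.2 and 70.5. These gaps were wider than the log2 changes of 1.997, 1.78 and 1.01 given above for SRI, DBF4 and CDK6. PTPRC had 0 and 0.28 in Tax-R cells with control siRNA, against 149 and 151 in mock cells, and FBLN1 5.52 and 5.87 against 155 and 148. The untreated Tax-R libraries still had 242 and 376 normalized counts of PTPRC, so Tax-R levels differed between experiments, and why was not tested. PRSS35 was among the exceptions, with 0 and 0 against 0 and 0.135, as was EPHB6, with 8.28 and 8.11 against 17.3 and 16.2.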

How the data were processed

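RNA from untreated Tax-R and parental cells was sequenced as Illumina libraries made from total RNA, per the labels. The authors deposited gene tables of normalized counts, handled here as signal values. HISAT2, featureCounts, StringTie and DESeq2 are named in the submitters' processing notes. The genome build, strandedness and software versions are not given in the sources used here. Each library in the deposited tables was scaled by 1 factor, and dividing by its step gave whole reads within a tolerance of 0.05. There were 0 unmapped columns of per-sample values in the tables used.

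The test was limma 3.58.1 (R 4.3.3, trended variance), two-sided, on log2(value + 1) of genes averaging 10 or more across their table. P-values were adjusted by Benjamini-Hochberg over all genes tested, with a threshold of 0.05. The difference between lines was a contrast of within-table changes. The script was tested on simulated data. Alternatives were edgeR 4.0.16 and DESeq2 1.42.0 on recovered reads, quantile normalization, a pseudocount of 4, no filter, a replicate block, the Tax-R libraries as 1 sample, and each library left out. Nothing says the replicates came from separate cultures, so p-values measure the spread between these libraries, which may be technical.

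Where a group had no read, the fold was bounded by a floor of 3 reads over the group. Ratios against a group of 1 to 3 reads carry an exact 95% counting interval. Intervals and floors cover counting error only. A fold on the log2(value + 1) scale understates the change of low genes. Gene names, order and biotypes came from GENCODE v29, which matched 15698 tested genes by name.

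The members and lists were chosen with earlier results of these data known. The naming rule took up to 4 members per list with the largest called change and groups that do not overlap, the 15 highest and the 15 lowest folds among called genes averaging 50 or more, the 15 largest rises and falls by group mean, and the neighbours of ABCB1. Genes from the scans of windows, families and genes down to the floor, and other genes outside the rule, were chosen after their values were seen. Some genes that met the rule are not reported here. Replicate numbers did not pair the libraries, with a correlation of deviations of -0.00794 over 19085 genes.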

Additional observations from a re-analysis of the deposited data

Results flagged for a closer look

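Of 223 named genes tested in both lines, 149 had a called difference between the lines, against 36.8% of all genes tested in both; the named genes were chosen for large changes. Of them, 14 were called in opposite directions with the difference also called. Values are Tax-R minus parental on the log2(normalized count + 1) scale ± SE, with 2 libraries per group in each line, and no explanation was tested.

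These were higher in MDA-MB-436 Tax-R cells and lower in SUM159PT Tax-R cells. ARHGEF4 changed by 4.06 ± 0.25 in MDA-MB-436 and -1.50 ± 0.11 in SUM159PT, a difference of 5.57 (limma adjusted p = 1.72e-08). B2M, the class I light chain, changed by 0.40 ± 0.04 in MDA-MB-436 and -0.28 ± 0.047 in SUM159PT, with a difference of 0.68 (limma adjusted p = 2.76e-06). CA9, a hypoxia-induced carbonic anhydrase, changed by 0.91 ± 0.086 in MDA-MB-436 and -1.40 ± 0.10 in SUM159PT, a difference of 2.31 (limma adjusted p = 3.5e-08). CBX7, a polycomb component, changed by 0.65 ± 0.12 in MDA-MB-436 and -0.81 ± 0.14 in SUM159PT, with a difference of 1.46 (limma adjusted p = 6.01e-05). The MDA-MB-436 call of CBX7 was lost without parental replicate 2 (0.55). CYP2J2, an epoxygenase, changed by 1.41 ± 0.20 in MDA-MB-436 and -2.13 ± 0.43 in SUM159PT, a difference of 3.54 (limma adjusted p = 0.00012). IL18R1, the interleukin 18 receptor, changed by 0.84 ± 0.17 in MDA-MB-436 and -1.67 ± 0.086 in SUM159PT, with a difference of 2.50 (limma adjusted p = 1.08e-07). MAGEA11, a cancer-testis antigen, changed by 6.76 ± 0.18 in MDA-MB-436 and -4.45 ± 0.15 in SUM159PT, a difference of 11.21 (limma adjusted p = 3.41e-12).

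The others were lower in MDA-MB-436 Tax-R cells and higher in SUM159PT Tax-R cells. CDKN1A, the p21 inhibitor, changed by -0.91 ± 0.064 in MDA-MB-436 and 0.73 ± 0.073 in SUM159PT, a difference of -1.64 (limma adjusted p = 8.33e-08). COL1A1, a fibrillar collagen chain, changed by -0.21 ± 0.038 in MDA-MB-436 and 0.72 ± 0.036 in SUM159PT, with a difference of -0.92 (limma adjusted p = 3.19e-08). DSG3, a desmosomal cadherin, changed by -1.87 ± 0.21 in MDA-MB-436 and 2.88 ± 0.38 in SUM159PT, a difference of -4.75 (limma adjusted p = 3.2e-06). NDUFS7, a complex I subunit, changed by -0.49 ± 0.091 in MDA-MB-436 and 0.44 ± 0.12 in SUM159PT, with a difference of -0.93 (limma adjusted p = 0.000203). PTGES, which makes prostaglandin E2, changed by -1.84 ± 0.073 in MDA-MB-436 and 0.996 ± 0.18 in SUM159PT, a difference of -2.84 (limma adjusted p = 3.7e-08). SEMA3D, a guidance factor at the end of the chromosome 7 run, changed by -0.20 ± 0.059 in MDA-MB-436 and 0.64 ± 0.11 in SUM159PT, with a difference of -0.84 (limma adjusted p = 0.000155). The MDA-MB-436 call of SEMA3D was lost under DESeq2 (adjusted p = 0.25) and without Tax-R replicate 1, parental replicate 1 or parental replicate 2 (-0.21 to -0.18). TCF4, a bHLH transcription factor, changed by -0.89 ± 0.052 in MDA-MB-436 and 0.48 ± 0.11 in SUM159PT, a difference of -1.37 (limma adjusted p = 1.24e-06). Over all genes, 5.53% were called in opposite directions in the 2 lines.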

How the results depend on the processing

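Of the genes tested, 10421 were called and 2293 called with at least a 2-fold change. DESeq2 called 5913 and edgeR 10304. Without the filter on low values 4030 genes changed at least 2-fold, 663 higher and 3367 lower, because more weakly expressed genes were tested. Leaving out 1 library gave 7590 to 8958 called genes, 2084 to 2375 at least 2-fold, and 5190 to 6375 called differences between lines, against 6592 with every library. The other alternatives for the difference gave 5118 to 6790, and DESeq2 was not run for it. A replicate block gave 10815 called genes, 2305 at least 2-fold and 5992 called differences; the numbers are shared labels only, since deviations of same-numbered libraries had a correlation of -0.00794.

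Of 252 named genes, none changed direction under the alternatives run. The count that lost their call was 15 under DESeq2, 16 after quantile normalization, 5 with the Tax-R libraries as 1 sample, 4 without the filter, 1 under edgeR, and 6 to 20 when 1 library was left out. With 2 libraries per group, and with most large changes in genes of low count, depth limits the precision of single low genes.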
